A study of Mus musculus with 6 samples.

Results

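Type I interferon-stimulated genes are the genes that cells switch on when they sense type I interferon. Here 43 of them were followed by bulk RNA-sequencing in the whole lungs of 3 TNF+ and 3 TNF- mice. They were chosen by gene symbol, and 43 of 43 were found among the 49568 gene symbols of the count table. The TNF+ mice are transgenic for human TNF and develop arthritis and pulmonary vascular disease, and TNF- mice are their wildtype littermates. All 6 mice were 4 months old females on a C57BL/6 background, and no other allele or agent is named for them. The TNF+ mice come from a single transgenic line that overexpresses the human gene, and the promoter that drives it is not given in the sources used here. Each library holds the poly(A) RNA of 1 mouse's lung, and reads were assigned to genes of the mouse.

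Type I interferons are released by cells that detect foreign or misplaced nucleic acid. They bind the receptor chains IFNAR1 and IFNAR2, whose kinases JAK1 and TYK2 set off the signal inside the cell. The signal forms the complex ISGF3, which holds STAT2 and IRF9 and binds a DNA element named the interferon-stimulated response element (ISRE) in the promoters of its target genes. The targets include sensors of nucleic acid, enzymes and membrane proteins that restrict viruses, the ubiquitin-like protein ISG15, and inhibitors that end the signal. TNF itself signals mainly through NF-kB, and the promoter of the interferon gene Ifnb1 also holds an NF-kB site.

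The promoters are shown because they tell which of the genes carry the letters of the element that ISGF3 reads. RefSeq promoters of mouse build GRCm38.p6, each 250 bases before to 50 after a start of transcription, were at hand for 31 of the 43 genes. The genes without one were Usp18, Oas2, Dhx58, Zbp1, Ifi204, Mx1, Mx2, Parp9, Parp14, Ifi27, Ifi27l2a and Rtp4. The core of the ISRE, searched as GAAANNGAAA on both strands, stood in 17 of the 31 genes (54.8%), against 3.99% of the 27025 genes with a promoter. In the windows below, written 5′ to 3′ on the strand of the gene, capitals mark the ISRE core or, where cores overlap, the whole run. In the last window, that of Epsti1, capitals mark a match to the NF-kB motif. Positions count from the start, with -1 as the base just before it.
Isg15 (chr4:156200860-156200911, minus strand, capitals at -78 to -57): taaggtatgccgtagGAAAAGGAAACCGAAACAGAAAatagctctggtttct
Ifit1 (chr19:34640770-34640809, plus strand, capitals at -104 to -95): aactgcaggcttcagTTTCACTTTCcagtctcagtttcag
Ifit3 (chr19:34583358-34583397, plus strand, capitals at -156 to -147): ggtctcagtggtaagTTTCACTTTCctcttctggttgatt
Ifit3b (chr19:34607754-34607793, plus strand, capitals at -188 to -179): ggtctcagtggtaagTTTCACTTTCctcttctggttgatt
Rsad2 (chr12:26456548-26456587, minus strand, capitals at -120 to -111): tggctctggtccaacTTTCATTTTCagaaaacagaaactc
Stat2 (chr10:128270261-128270300, plus strand, capitals at -222 to -213): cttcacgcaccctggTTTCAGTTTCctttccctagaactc
Bst2 (chr8:71537572-71537617, minus strand, capitals at -130 to -115): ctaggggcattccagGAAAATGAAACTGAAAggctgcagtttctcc
Slfn8 (chr11:83020834-83020873, minus strand, capitals at -136 to -127): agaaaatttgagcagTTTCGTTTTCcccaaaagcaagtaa
Epsti1 (chr14:77904070-77904109, plus strand, capitals at -154 to -145): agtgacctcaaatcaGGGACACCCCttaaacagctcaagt

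The run of overlapping cores was longest in Isg15 among these windows, and the Bst2 run also held more than 1 core. Ifit1 carried a further core at -85 to -76, and Ifit3 and Ifit3b carried the same letters at different distances from their starts, with a further core at -122 to -113 in Ifit3 and at -154 to -145 in Ifit3b. Both annotated starts of Slfn8 share the element that is shown. The Epsti1 window held no ISRE core, and the match shown lay in the only NF-kB position found there. A match is a run of letters and not evidence that a factor binds.

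The deposited counts came to between 25396923 and 32529408 per lung, so that 3 counts, the smallest number taken as detected, corresponded to 0.0922 to 0.118 CPM (counts scaled to library size), a floor that covers counting error only. Mouse Tnf, the check of the genotype labels, had normalized counts of 139.8, 220.3 and 382 in TNF+ against 15.3, 13.4 and 31.1 in TNF- lungs (log2 fold change 3.62 with a standard error of 0.46, adjusted p = 0.000471). A normalized count is a count scaled by edgeR's TMM method to a common library size, the mean over the 6 lungs, and reads of the human transgene enter the Tnf row only where they map to the mouse gene. Both replicates 1 stood apart. In TNF+ replicate 1 the gene Gm42418 took 5.22% of all counts, against at most 0.274% in the other lungs, and TNF- replicate 1 held 102003 counts of the squamous epithelium keratins Krt4 and Krt13, against at most 13 elsewhere. Replicates of 1 genotype differed by more than sampling noise, with chi-square values per degree of freedom of 53.7 to 140.3.

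The 43 genes did not move together. In TNF+ lungs 11 were higher, 9 were lower and 23 were not called. Calls were made at 0.05 on p-values of edgeR's quasi-likelihood test, adjusted by Benjamini-Hochberg over the 19199 genes tested. The 20 calls made up 46.5% of the genes, where 47.4% of all genes tested were called. The higher calls were 25.6% of the genes against 24% of all genes, and the lower calls were 20.9% against 23.4%. The share called therefore stood near that of all genes tested. All 43 genes passed the filter on low counts, and without this filter 13% of 34744 genes were called higher and 13.1% lower.
The median log2 fold change was 0.14, against 0.03 for all genes tested, and without TNF+ replicate 3 it turned to -0.024. Changes were small for most of the genes, since 29 of 43 (67.4%) moved by less than 0.5 on the log2 scale, against 51.5% of all genes. The values ran from -1.07 to 1.99. The 3 TNF+ lungs all exceeded the 3 TNF- lungs in 16 genes (30.5% of all genes tested) and all fell short of them in 12 genes (28.2% of all genes tested), and the genotypes overlapped in 15. Past a log2 fold change of 1 there were 3 higher genes, Epsti1, Ifi204 and Slfn8, with 10.3% of all genes at or past this size in that direction. Past -1 there were 2 lower genes, Oas2 and Ifi27l2a, with 12.2% of all genes at or past it.

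**Figure D1:**
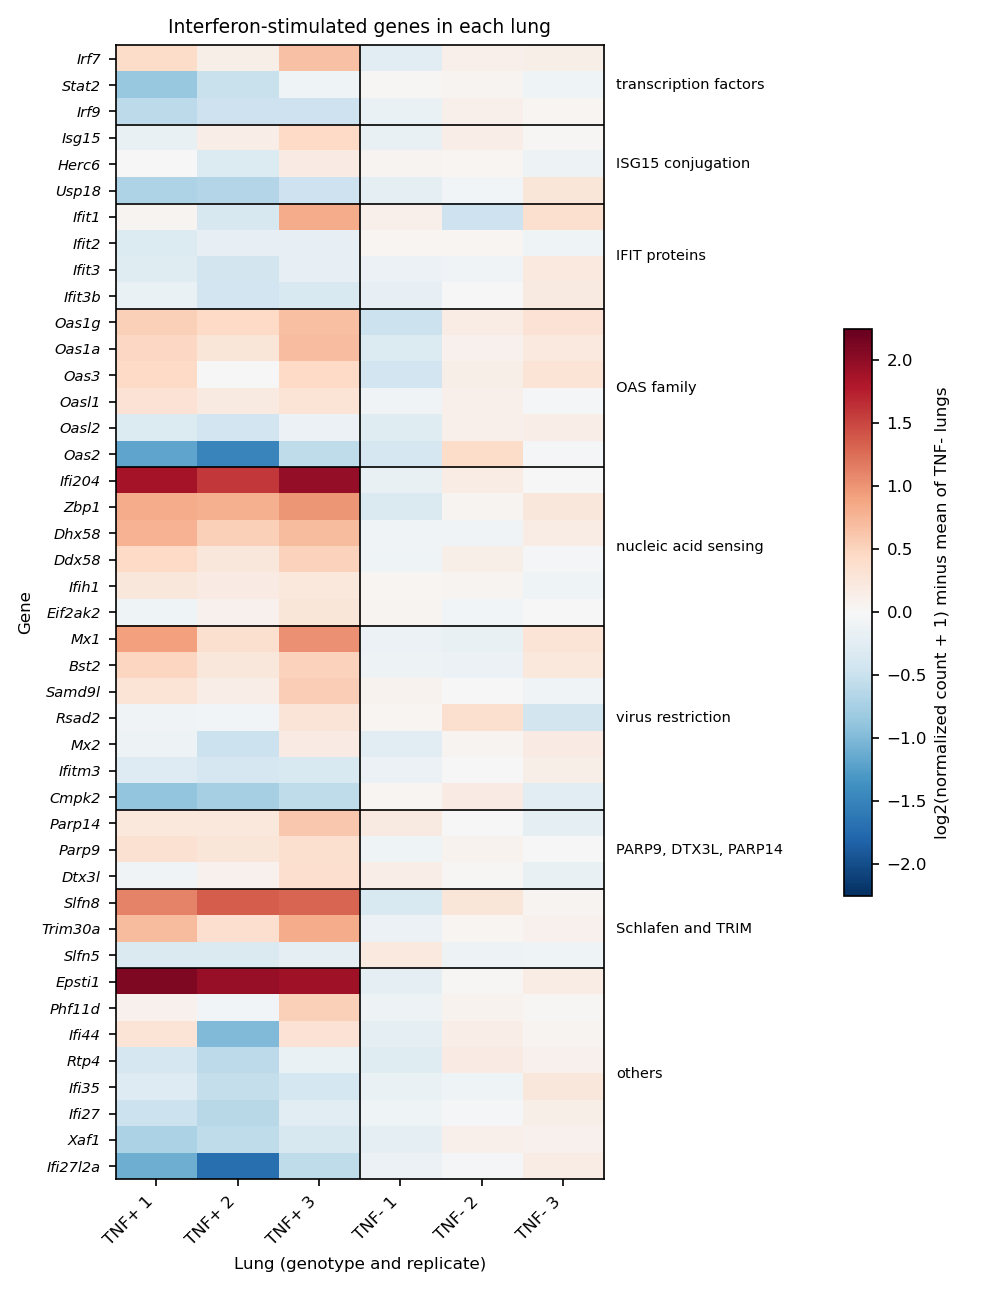
Each row is 1 of the 43 genes and each column 1 lung (TNF+ replicates 1 to 3, then TNF- replicates 1 to 3). Colour gives log2(normalized count + 1) minus the mean of the 3 TNF- lungs, red above and blue below it. Epsti1, Ifi204 and Slfn8 are dark red in all 3 TNF+ lungs, Oas2 and Ifi27l2a are blue in them, and most rows stay pale.

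**Figure D2:**
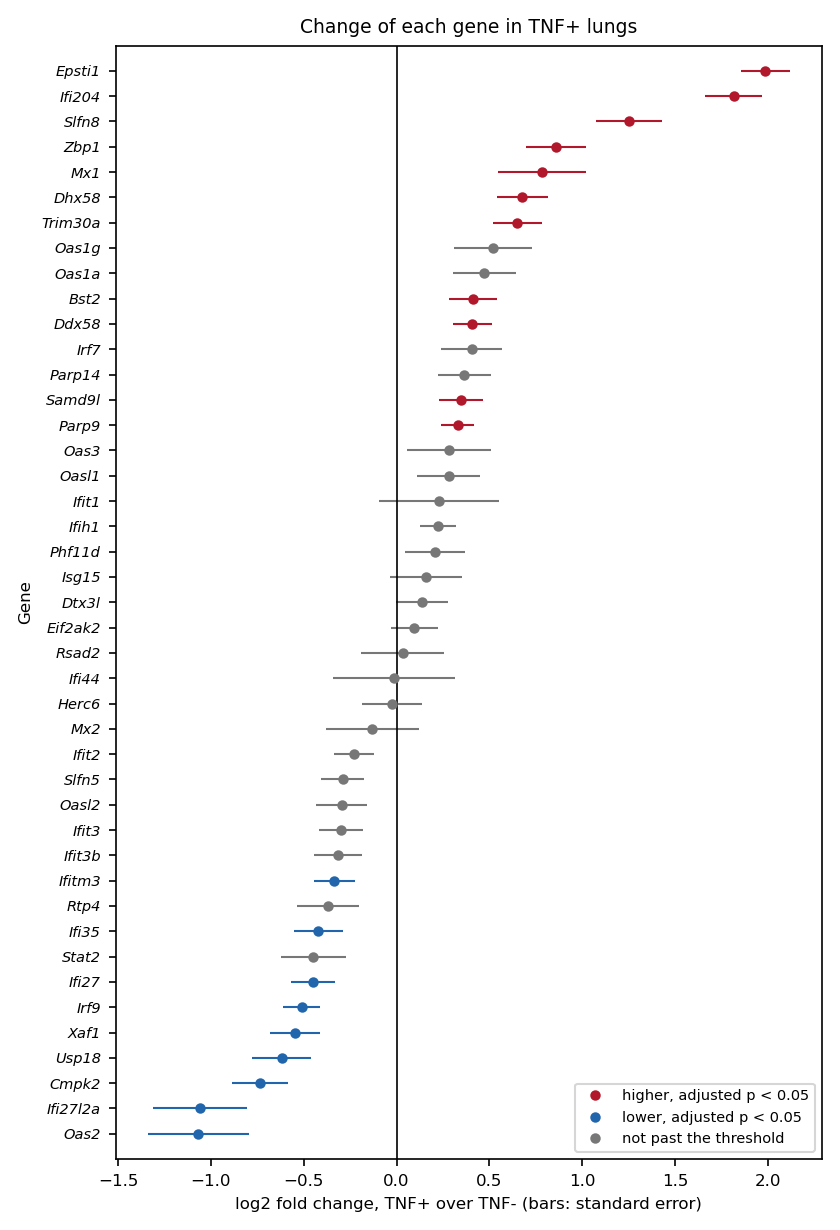
Points give the log2 fold change of TNF+ over TNF- lungs for each of the 43 genes and bars give its standard error (3 lungs per genotype). Red points are the 11 genes called higher, blue points the 9 called lower and grey points the 23 not called. The order runs from Epsti1 at 1.99 to Oas2 at -1.07.

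Markers of cell types moved along with genotype. All 8 of 8 markers of monocytes and interstitial macrophages, among them Csf1r and C1qa, were higher in TNF+ lungs, and their summed normalized counts were 97376 to 120504 against 12348 to 13247. All 7 of 7 endothelial markers were lower (47379 to 54707 against 90479 to 103575 summed), as were 7 of 8 epithelial markers (502214 to 657825 against 1025330 to 1240310). Of the 8 markers of plasmacytoid dendritic cells, the cells known for the highest output of type I interferon, 5 were higher and 2 were lower, and the sum was 5139 to 5348 against 1928 to 2551. Without Spib it was 2274 to 2728 against 1456 to 2169, and without Spib and Ly6d the genotypes overlapped, at 1207 to 1431 against 1186 to 1501. Of 7 neutrophil markers 1 was higher and 4 were lower (2002 to 3117 against 2714 to 4596). Of 8 alveolar macrophage markers 3 were higher and 2 were lower, with sums of 67933 to 110394 against 8223 to 10767, or 14960 to 18623 against 7963 to 9882 without Marco, which made most of the difference, and 5717 to 6564 against 3720.1 to 4653 without Marco and Chil3. For B and plasma cells 5 of 7 were higher with none lower (65557 to 131316 against 9110 to 16031), with Jchain making most of the sum in TNF+ lungs and the other 6 at 11104 to 15145 against 8327 to 10639. Without Jchain and Cd79a the genotypes overlapped, at 8398 to 11678 against 7221 to 8496. For T and NK cells 4 of 8 were higher with 2 lower (9949.6 to 14266 against 1866 to 2609), but without Cd4 the other 7 overlapped between genotypes, at 1830.1 to 1952 against 1587 to 2052. Without Cd4 and Gzma, which was lower, the other 6 stood at 1773 to 1905 against 991 to 1523. Of 8 fibroblast and smooth muscle markers 6 were lower (39539 to 40429 against 61505 to 80137). None of the markers of these lists was at 0 in any lung. In bulk lung, fewer cells of a type and less RNA per cell cannot be told apart, and the part of cell composition in the changes given here was not tested.

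Of the 3 members that regulate transcription, 1 was lower and 2 were not called. Irf9 (ENSMUSG00000002325.15, chromosome 14, 55603571 to 55610030 on the plus strand of GRCm38), the DNA-binding subunit of ISGF3, had normalized counts of 1169.5, 1268 and 1272 in TNF+ against 1576, 1890.0 and 1819 in TNF- lungs. All 3 TNF+ lungs lay below all 3 TNF- lungs, with a fold of 0.702 (log2 fold change -0.51 with a standard error of 0.10, adjusted p = 0.0037), and the call held without any 1 lung. Irf9 overlaps Rnf31 on the same strand, and reads of the shared part cannot be told apart. Stat2 (ENSMUSG00000040033.16, chromosome 10, 128270559 to 128292849 on the plus strand), a member of the same complex, had 1197, 1522 and 2036 in TNF+ against 2216, 2253 and 2030.4 in TNF- lungs. It was lowest in TNF+ replicate 1, while TNF+ replicate 3 stood level with the lowest TNF- lung, so the genotypes overlapped (log2 fold change -0.45 with a standard error of 0.18, adjusted p = 0.0656). Without TNF+ replicate 3 the Stat2 call passed (log2 fold change -0.69, adjusted p = 0.00534), and it also passed with DESeq2 (adjusted p = 0.0196). Irf7 (ENSMUSG00000025498.15, chromosome 7, 141262706 to 141266481 on the minus strand), the factor that amplifies transcription of the interferon genes, had 1026, 846 and 1224 in TNF+ against 648, 841 and 851 in TNF- lungs. TNF+ replicate 2 lay within the TNF- range (log2 fold change 0.40 with a standard error of 0.16, adjusted p = 0.0729), and without that lung the Irf7 call passed (adjusted p = 0.0366).

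In the ISG15 system 1 of 3 members was lower. Isg15 (ENSMUSG00000035692.6, chromosome 4, 156199424 to 156200818 on the minus strand), the ubiquitin-like modifier itself, had normalized counts of 174, 218 and 267 in TNF+ against 175, 218 and 199.9 in TNF- lungs. TNF+ replicates 1 and 2 stood beside the lowest and the highest TNF- lung, and TNF+ replicate 3 stood above them (log2 fold change 0.16 with a standard error of 0.19, adjusted p = 0.53). Usp18 (ENSMUSG00000030107.10, chromosome 6, 121245906 to 121270917 on the plus strand), the protease that removes ISG15 from proteins and also blocks the receptor chain IFNAR2, had 276, 283 and 326 in TNF+ against 385, 431 and 543 in TNF- lungs. Every TNF+ lung lay below every TNF- lung (log2 fold change -0.62 with a standard error of 0.16, adjusted p = 0.0138), and without TNF+ replicate 2 the call was lost (adjusted p = 0.0531). Herc6, an ISG15 ligase of the mouse, ranged over 219 to 309 in TNF+ against 251 to 284 in TNF- lungs and was not called (log2 fold change -0.03, adjusted p = 0.908).

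None of the 4 IFIT genes, whose proteins bind viral RNA or act on translation, was called by edgeR (2 of the 4 had groups that did not overlap). Ifit3 (ENSMUSG00000074896.3, chromosome 19, 34583531 to 34588731 on the plus strand) had normalized counts of 1388, 1265 and 1477 in TNF+ against 1528, 1591 and 1959 in TNF- lungs, with every TNF+ lung below the TNF- lungs (log2 fold change -0.30 with a standard error of 0.12, adjusted p = 0.0704). Ifit3b (ENSMUSG00000062488.9, chromosome 19, 34607970 to 34613401 on the plus strand), its neighbour on chromosome 19, had 849, 696 and 743 in TNF+ against 827, 938 and 1082 in TNF- lungs, with an overlap at TNF+ replicate 1 (log2 fold change -0.32 with a standard error of 0.13, adjusted p = 0.0795). Without TNF- replicate 1 the Ifit3b call passed (adjusted p = 0.0378). The pair is uncertain as separate genes, since 31.7% of the 100-base windows of Ifit3 transcripts also occur in Ifit3b, and the ratio of Ifit3b to Ifit3 counts ran from 0.503 to 0.612 over the 6 lungs. Ifit2 (log2 fold change -0.23, adjusted p = 0.113) ranged over 481 to 528 in TNF+ against 562 to 618 in TNF- lungs. Ifit1 (log2 fold change 0.23, adjusted p = 0.585) ranged over 193 to 443 in TNF+ against 180.2 to 317 in TNF- lungs. Ifit1 had the widest spread of the 4 in TNF+ lungs, where replicate 3 held more than its other lungs.

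The OAS family includes enzymes that make the messenger that activates the RNA-cutting enzyme RNase L. Of the 6 members of the family here, 1 was lower and none higher. Oas2 (ENSMUSG00000032690.16, chromosome 5, 120730333 to 120749853 on the minus strand) had normalized counts of 368, 298 and 564 in TNF+ against 642, 1119 and 822 in TNF- lungs. All TNF+ lungs lay below all TNF- lungs, at a fold of 0.477 (log2 fold change -1.07 with a standard error of 0.27, adjusted p = 0.0127), and the call held without any 1 lung, with log2 fold changes of -1.39 to -0.84. Oas1a, Oas1g and Oas3, its neighbours on chromosome 5, had positive log2 fold changes that did not pass the test. Their relative Oas1b, which is not among the 43 genes, was not called either, at a log2 fold change of -0.51. Oas1a (ENSMUSG00000052776.10, chromosome 5, 120896256 to 120907521 on the minus strand) had 701, 609 and 824 in TNF+ against 409, 541 and 588 in TNF- lungs, all TNF+ lungs above all TNF- lungs (log2 fold change 0.47 with a standard error of 0.17, adjusted p = 0.0504). Its call passed with DESeq2 (adjusted p = 0.0436) and with limma-voom (adjusted p = 0.0464). Oas1g (ENSMUSG00000066861.14, chromosome 5, 120876142 to 120887613 on the minus strand) had 394, 373 and 437 in TNF+ against 193, 304 and 342 in TNF- lungs, again without overlap (log2 fold change 0.52 with a standard error of 0.21, adjusted p = 0.0722). Oas1a and Oas1g share sequence, with 40.9% of Oas1a windows found in Oas1g, and their count ratio ran from 0.472 to 0.613, so they are uncertain as separate genes. The remaining 3 were not called. Oas3 (log2 fold change 0.28, adjusted p = 0.339) spanned 179 to 244 in TNF+ against 132 to 220.4 in TNF- lungs, Oasl1 (log2 fold change 0.28, adjusted p = 0.21) spanned 119 to 131 in TNF+ against 97.5 to 112 in TNF- lungs, and Oasl2 (log2 fold change -0.30, adjusted p = 0.104) spanned 1465 to 1824 in TNF+ against 1653 to 2199 in TNF- lungs. Oas2 overlaps a predicted gene on the other strand, and so do Oasl1, Usp18, Irf7, Dhx58, Rtp4, Eif2ak2, Trim30a, Ifi35, Parp9, Dtx3l, Herc6 and Slfn5 with a gene on the strand opposite their own. Irf9, Rtp4, Parp14 and Herc6 overlap a gene on their own strand. The strand setting of the counting is not given in the sources used here.

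Among the sensors of nucleic acid 4 of 6 members were higher and none was lower, where 24% of all genes were called higher. Ifi204 (ENSMUSG00000073489.6, chromosome 1, 173747293 to 173766943 on the minus strand), a DNA-binding protein of the Ifi200 family, had normalized counts of 679, 563 and 731 in TNF+ against 166, 209 and 185 in TNF- lungs, or 657 ± 86.1 against 187 ± 21.4 (SD, n = 3). The genotypes stood far apart, at a fold of 3.52 (log2 fold change 1.82 with a standard error of 0.15, adjusted p = 5.47e-05). Of its 100-base windows 10.7% also occur at other loci, mainly in Ifi211. Zbp1, which senses Z-form nucleic acid and can trigger necroptosis, ranged over 599 to 687 in TNF+ against 275 to 412 in TNF- lungs (log2 fold change 0.86 with a standard error of 0.16, adjusted p = 0.00324). The RNA helicases that detect viral RNA all had positive values. Dhx58 (LGP2) ranged over 385 to 455 in TNF+ against 249 to 297 in TNF- lungs (log2 fold change 0.68 with a standard error of 0.14, adjusted p = 0.00445), and Ddx58 (RIG-I) over 2098 to 2518 in TNF+ against 1643 to 1919 in TNF- lungs (log2 fold change 0.41 with a standard error of 0.11, adjusted p = 0.0136). Ddx58 lost its call without TNF+ replicate 1, TNF+ replicate 3 or TNF- replicate 1 (adjusted p 0.0523 to 0.0651). Ifih1 (MDA5) did not overlap between genotypes but was not called (log2 fold change 0.22, adjusted p = 0.0876), with 857 to 895 in TNF+ against 700.2 to 786 in TNF- lungs. Eif2ak2 (PKR), the kinase that halts translation, was not called either (log2 fold change 0.10, adjusted p = 0.552), with 513 to 659 in TNF+ against 522 to 570.5 in TNF- lungs.

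Among the 7 genes grouped here under virus restriction, 3 were higher and 2 were lower, and no protein was measured. Mx1 (ENSMUSG00000000386.15, chromosome 16, 97447035 to 97462907 on the minus strand), a gene of the dynamin-like GTPases, had normalized counts of 185, 125 and 199 in TNF+ against 88.9, 86.3 and 120.0 in TNF- lungs. TNF+ replicate 2 stood just above the highest TNF- lung (log2 fold change 0.78 with a standard error of 0.24, adjusted p = 0.0264), and the call was lost in 4 of the 6 fits that left out 1 lung, at adjusted p-values up to 0.0963. Bst2 (tetherin), which holds budding virions at the membrane, ranged over 1812 to 2168 in TNF+ against 1394 to 1797 in TNF- lungs (log2 fold change 0.41 with a standard error of 0.13, adjusted p = 0.0286), and Samd9l over 1336 to 1778 in TNF+ against 1140.1 to 1279 in TNF- lungs (log2 fold change 0.35 with a standard error of 0.12, adjusted p = 0.0426). Bst2 lost its call in 4 of the 6 fits without 1 lung, at adjusted p-values up to 0.122, and Samd9l in 5 of 6, at up to 0.135.
Cmpk2 (ENSMUSG00000020638.8, chromosome 12, 26469204 to 26479837 on the plus strand), a mitochondrial nucleotide kinase, had 319, 351 and 397 in TNF+ against 611, 673 and 498 in TNF- lungs, all TNF+ lungs below (log2 fold change -0.74 with a standard error of 0.15, adjusted p = 0.00473). It lies beside Rsad2 on chromosome 12, read in the opposite direction. Rsad2 (viperin), which makes a chain-terminating nucleotide, ranged over 174 to 225 in TNF+ against 138 to 236 in TNF- lungs and was not called (log2 fold change 0.03, adjusted p = 0.918). Ifitm3 (ENSMUSG00000025492.6, chromosome 7, 141009586 to 141010770 on the minus strand), which blocks the fusion of viruses with endosomes, had 8422, 7899.8 and 8129 in TNF+ against 9389.6, 10180.1 and 11264 in TNF- lungs, again without overlap (log2 fold change -0.33 with a standard error of 0.11, adjusted p = 0.0347). Its call was lost in 5 of the 6 fits without 1 lung (adjusted p up to 0.108) and with the replicate number as a block (adjusted p = 0.0888). Mx2, annotated as a polymorphic pseudogene in the mouse, was not called (log2 fold change -0.13, adjusted p = 0.693), with 50.7 to 81.2 in TNF+ against 60.2 to 81.8 in TNF- lungs.

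Of the ADP-ribosylation genes 1 of 3 was higher. Parp9, which acts in a complex with the ubiquitin ligase Dtx3l, ranged over 1269 to 1352 in TNF+ against 982 to 1108 in TNF- lungs (log2 fold change 0.33 with a standard error of 0.09, adjusted p = 0.0169), and lost its call in 3 of the 6 fits without 1 lung (adjusted p up to 0.089) and under a replicate block (adjusted p = 0.0506). Dtx3l (log2 fold change 0.14, adjusted p = 0.457), with 897 to 1231 in TNF+ against 842 to 1057 in TNF- lungs, and Parp14 (log2 fold change 0.36, adjusted p = 0.0642), with 2542 to 3257 in TNF+ against 1859 to 2459 in TNF- lungs, were not called. Parp9 and Dtx3l overlap on opposite strands.
In the Schlafen and TRIM families 2 of 3 were higher. Slfn8 (ENSMUSG00000035208.16, chromosome 11, 83002158 to 83020810 on the minus strand), a Schlafen protein of the mouse, had normalized counts of 458, 541 and 518 in TNF+ against 164, 254 and 219 in TNF- lungs, or 506 ± 43.1 against 213 ± 45.2 (SD, n = 3). The lowest TNF+ lung lay well above the highest TNF- lung, at a fold of 2.38 (log2 fold change 1.25 with a standard error of 0.18, adjusted p = 0.000798). Slfn5, its neighbour on chromosome 11, had its values on the other side, 2744 to 3001 in TNF+ against 3175 to 4008 in TNF- lungs, without overlap and without a call (log2 fold change -0.29, adjusted p = 0.0704), though DESeq2 called it lower (adjusted p = 0.0326). Trim30a, a negative regulator of Toll-like receptor signalling, ranged over 1062 to 1448 in TNF+ against 743 to 865 in TNF- lungs (log2 fold change 0.65 with a standard error of 0.13, adjusted p = 0.0047).

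Epsti1 (ENSMUSG00000022014.15, chromosome 14, 77904239 to 78002657 on the plus strand), an interferon-induced gene named for epithelial-stromal interaction, had normalized counts of 1138, 1025 and 988 in TNF+ against 229, 268 and 297 in TNF- lungs, or 1050.4 ± 78.0 against 265 ± 33.9 (SD, n = 3). This was the largest rise of the 43 genes, at a fold of 3.96 (log2 fold change 1.99 with a standard error of 0.13, adjusted p = 2.04e-05), and without any 1 lung the log2 fold change stayed between 1.87 and 2.07. Ifi27l2a (ENSMUSG00000079017.3, chromosome 12, 103442167 to 103443680 on the minus strand), a small hydrophobic interferon-induced protein, had 431, 282 and 616 in TNF+ against 841, 898 and 1033 in TNF- lungs, or 443 ± 167 against 924 ± 98.4 (SD, n = 3). All TNF+ lungs lay below all TNF- lungs, at a fold of 0.48 (log2 fold change -1.06 with a standard error of 0.25, adjusted p = 0.00962), and replicate 2 was lowest. Ifi27 (ENSMUSG00000064215.13, chromosome 12, 103434211 to 103440239 on the plus strand), its neighbour on chromosome 12, had 1629.7, 1477 and 1900.2 in TNF+ against 2139.6, 2193 and 2507 in TNF- lungs (log2 fold change -0.45 with a standard error of 0.12, adjusted p = 0.0146). That call was lost without TNF+ replicate 2 (adjusted p = 0.0525).
Xaf1 (ENSMUSG00000040483.15, chromosome 11, 72301629 to 72313733 on the plus strand), which antagonizes the apoptosis inhibitor XIAP, had 519.5, 574 and 659 in TNF+ against 742, 915 and 906 in TNF- lungs (log2 fold change -0.55 with a standard error of 0.13, adjusted p = 0.0109). Ifi35 (ENSMUSG00000010358.13, chromosome 11, 101448407 to 101458698 on the plus strand) had 1336, 1134 and 1241 in TNF+ against 1474, 1526 and 1967 in TNF- lungs (log2 fold change -0.42 with a standard error of 0.13, adjusted p = 0.0287), and it lost the call without TNF+ replicate 2, TNF+ replicate 3 or TNF- replicate 3 (adjusted p 0.0591 to 0.0954). In all 3 of these genes the TNF+ lungs lay below the TNF- lungs. Rtp4 (log2 fold change -0.37, adjusted p = 0.102), Phf11d (log2 fold change 0.21, adjusted p = 0.326) and Ifi44 (log2 fold change -0.01, adjusted p = 0.98) were not called. Rtp4 spanned 334 to 453 in TNF+ against 414 to 567 in TNF- lungs, and Phf11d spanned 564 to 848 in TNF+ against 543 to 624 in TNF- lungs. Ifi44 overlapped widely, with 85.8 to 215 in TNF+ against 148 to 189.8 in TNF- lungs.

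**Figure D3:**
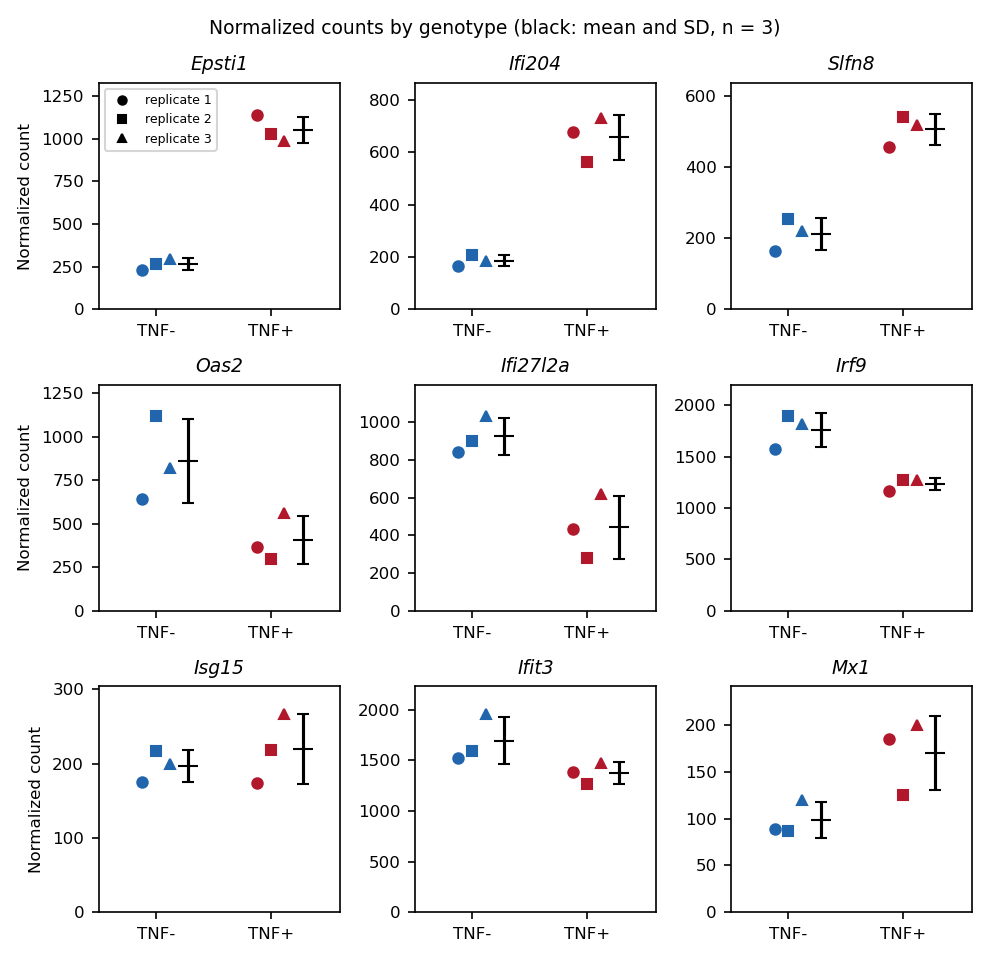
Each panel gives the normalized count of 1 gene in every lung, with TNF- lungs in blue on the left, TNF+ lungs in red on the right, marker shape for the replicate number, and black bars for mean and SD (n = 3). The vertical axes start at 0. Epsti1, Ifi204 and Slfn8 stand higher in TNF+ lungs, Oas2, Ifi27l2a and Irf9 stand lower, and Isg15 overlaps.

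Levels can be set side by side between genes only per length, here as TMM-scaled CPM per kilobase of exon (mean ± SD, n = 3). Over the 43 genes the median level across the 6 lungs was 5.79. Ifitm3 stood highest, at 398 ± 12.8 in TNF+ and 502 ± 45.9 in TNF- lungs. Bst2 followed among TNF+ lungs at 74.7 ± 7.21 in TNF+ and 56.1 ± 8.39 in TNF- lungs, and Ifi27l2a stood next to Ifitm3 among TNF- lungs at 66.0 ± 7.03. In TNF- lungs Bst2 and Ifi27 (51.4 ± 4.47) lay within their spread of each other. With the longest transcript as the length, Ifi27 stood above Ifi27l2a in TNF- lungs, at 72.5 to 84.9 against 60.1 to 73.8. At the low end, Mx2 stood at 0.604 ± 0.14 in TNF+ and 0.661 ± 0.101 in TNF- lungs, the lowest mean of the 43 in both genotypes, with a range in TNF- lungs (0.551 to 0.748) that overlapped that of Oas3 (0.617 to 1.03). In TNF+ lungs Ifi44 (0.463 to 1.16) overlapped Mx2 (0.464 to 0.743). With the longest transcript as the length, Mx1 (0.843 to 1.17) and Mx2 (0.804 to 1.09) overlapped in TNF- lungs, and the mean of Mx1 was the lower. Isg15, often used as a readout of interferon, stood above the median at 9.62 ± 2.04 in TNF+ and 8.64 ± 0.939 in TNF- lungs.

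Read by call, the ISRE core stood in the promoters of 4 of 6 higher genes with a promoter, 1 of 5 lower genes and 12 of 20 genes not called. With the bases CT also fixed after the core, the numbers were 4 of 6, 1 of 5 and 5 of 20, and Isg15 and Rsad2 no longer held a match. With so few promoters the shares are wide, at 30.0% to 90.3% for the higher genes and 3.62% to 62.4% for the lower ones (95% Wilson intervals). The gamma-activated site, searched as TTCNNNGAA on both strands, stood in 6 of 31 (19.4%) against 9.55% of all genes with a promoter. A match to the NF-kB motif stood in 6 of 31 (19.4%), against 9.55% of all genes with a promoter and 12.4% of those that were tested here. These matches were in Bst2, Epsti1, Ifit2, Ifitm3, Oas3 and Oasl1, of which Bst2 and Epsti1 were called higher and Ifitm3 lower. Isg15, Ifit1, Ifit3 and Rsad2, which all carry the core shown above, were not called, while Epsti1, the gene with the largest rise, carries none in its window.

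The TNF+ lungs differed among themselves. The median deviation of the 43 genes from the TNF- mean was 0.31 on the log2 scale in TNF+ replicate 3, against -0.0021 in replicate 1 and -0.059 in replicate 2. In the TNF- lungs it was -0.13, 0.060 and 0.088. TNF+ replicate 3 held the highest value of all 6 lungs in 20 of the 43 genes (46.5%) and the lowest in 0, where over all 19199 genes it was the highest in 15% and the lowest in 15.6%. TNF+ replicate 2 was the highest in 1 gene and the lowest in 12, where over all genes it was the highest in 20.3% and the lowest in 16%. TNF- replicate 1 was likewise the highest in 1 gene and the lowest in 13, against 18.4% and 20.3% of all genes. Mouse Tnf was also highest in TNF+ replicate 3, and whether the level of Tnf has a part in this was not tested. Without that lung 6 of the 43 genes were called higher and 8 lower, and of all genes 21.1% and 20.8%.

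The interferon genes themselves were almost absent from the counts. All 18 type I interferon genes in the table stayed at or under 3 counts in every lung, and their sum was 1 to 4 counts per lung. Ifnb1, the interferon gene that most cell types can make, was at 0 counts in every lung, where 3 counts are the limit that a count of 0 allows. Ifng, the type II interferon of T and NK cells, had 17, 8 and 22 counts in TNF+ and 6, 7 and 9 in TNF- lungs and did not pass the filter on low counts. Its TNF+ lungs lay above its TNF- lungs in normalized counts, and DESeq2, which tested it, did not call it (log2 fold change 1.29, adjusted p = 0.156). A difference in the type I interferon genes was not detectable at this depth.
The table held 62 pathway genes beside the 43, the interferon genes included. Of these, 40 were tested, and in TNF+ lungs 22 were higher (55%) and 2 lower (5%), beside the 24% and 23.4% of all genes. The median log2 fold change of these 40 genes was 0.44, against 0.14 for the 43. Of 6 receptor chains, counted over all types of interferon, 5 were higher. Among these, Ifngr1, Ifngr2 and Il10rb are not chains of the type I receptor. Of the type I chains, Ifnar1 had normalized counts of 3239.7, 3142 and 3785 in TNF+ against 1655, 1532 and 1466 in TNF- lungs (log2 fold change 1.13 with a standard error of 0.11, adjusted p = 9.8e-05). Ifnar2 had 2595, 2626 and 2601 in TNF+ against 1491, 1679 and 1626 in TNF- lungs (log2 fold change 0.71 with a standard error of 0.09, adjusted p = 0.000354). In both chains the TNF+ lungs lay above the TNF- lungs.
Among the 3 receptor kinases only Jak2, named after its values were seen, was higher (log2 fold change 1.10 with a standard error of 0.10, adjusted p = 6.37e-05). Jak1 (log2 fold change 0.26, adjusted p = 0.0758) and Tyk2 (log2 fold change 0.14, adjusted p = 0.235) were not called. Irf1 was not called (log2 fold change 0.08, adjusted p = 0.632), and among the 6 regulatory factors counted here 3 were higher.
Of 14 genes that lead to interferon transcription 9 were higher and 1 was lower. Tlr7, the endosomal receptor for single-stranded RNA, had 724, 913 and 736 in TNF+ against 167, 163 and 195 in TNF- lungs (log2 fold change 2.17 with a standard error of 0.15, adjusted p = 2.1e-05), and Tlr9, that for DNA, had 526, 672 and 614 in TNF+ against 235, 264 and 205 in TNF- lungs (log2 fold change 1.36 with a standard error of 0.15, adjusted p = 0.000211). Ikbke, a kinase upstream of IRF3 and IRF7, had the largest rise of this group (log2 fold change 2.64 with a standard error of 0.17, adjusted p = 1.75e-05) and was named after its values were seen. Of 9 tested inhibitors 4 were higher, among them Socs1 (log2 fold change 1.16 with a standard error of 0.27, adjusted p = 0.0086) and Socs3 (log2 fold change 0.59 with a standard error of 0.17, adjusted p = 0.0191), and none was lower. Socs3 lost its call in 4 of the 6 fits without 1 lung (adjusted p up to 0.0815), and without both replicates 1 neither Socs1 (adjusted p = 0.0745) nor Socs3 (adjusted p = 0.162) was called. The enzymes that load ISG15 were not higher, since Uba7 was not called (log2 fold change -0.14, adjusted p = 0.316) and Ube2l6 was lower (log2 fold change -0.80, adjusted p = 0.0275). Ube2l6 lost its call in 3 of the 6 fits without 1 lung. The markers of monocytes and interstitial macrophages given above were higher, as were most receptor chains, Tlr7 and Tlr9. Of 8 alveolar macrophage markers 3 were higher and 2 were lower. The part of these markers in the rises was not tested.

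**Figure D4:**
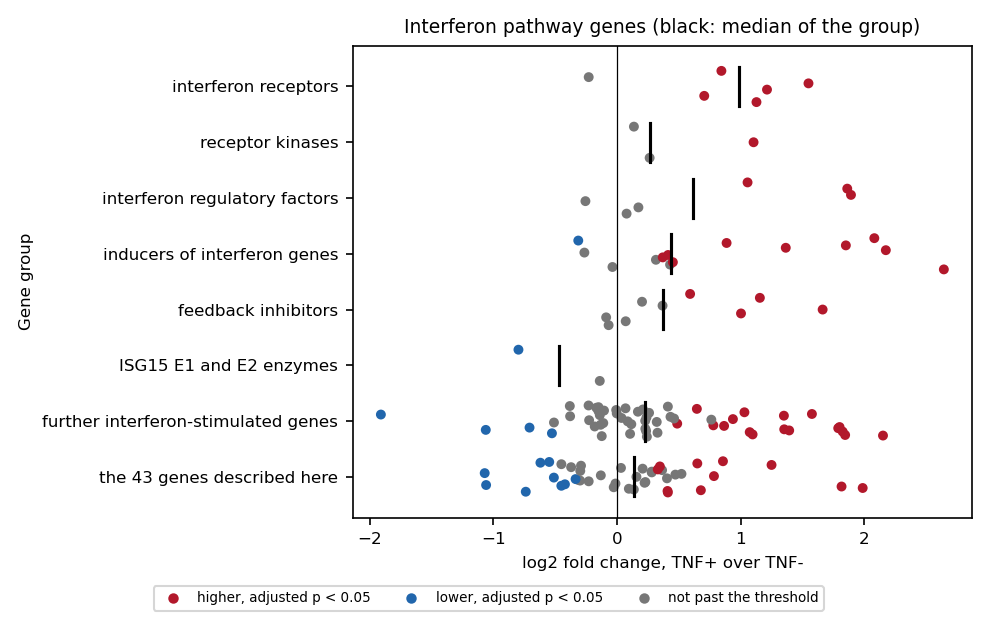
Each point is the log2 fold change of 1 tested gene, in rows by group, with the 43 genes in the last row. Red points are called higher, blue points lower and grey points neither, and black bars mark the median of each row. The receptor row, over all types of interferon, lies mostly to the right of 0, with a median of 0.99, while the 43 genes spread to both sides around 0.14.

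A list of 58 further interferon-stimulated genes, of which 56 were tested, was set beside the 43. In it 17 genes were higher (30.4%) and 4 were lower (7.14%), beside 24% and 23.4% of all genes tested, and the median log2 fold change was 0.23. The largest rises were in Casp4, the sensor of cytosolic lipopolysaccharide (log2 fold change 2.15 with a standard error of 0.29, adjusted p = 0.000628), Cd274, which encodes the checkpoint ligand PD-L1 (log2 fold change 1.84 with a standard error of 0.14, adjusted p = 3.43e-05), and Ifi207, of the Ifi200 family (log2 fold change 1.82 with a standard error of 0.15, adjusted p = 4.69e-05). Casp4 had normalized counts of 804, 610.1 and 782 in TNF+ against 153, 101 and 239.9 in TNF- lungs. The largest falls were in Slfn4 (log2 fold change -1.91 with a standard error of 0.36, adjusted p = 0.0033), Ifi213 (log2 fold change -1.06 with a standard error of 0.17, adjusted p = 0.00157) and Isg20, an RNA exonuclease (log2 fold change -0.71 with a standard error of 0.09, adjusted p = 0.000449). Slfn4 had 34.3, 25.9 and 57.6 in TNF+ against 103, 139.9 and 203 in TNF- lungs, so a Schlafen gene and an Ifi200 gene were each found among the falls as well as among the rises.

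The number of calls depended on the lungs used more than on the tool. DESeq2 called 11 higher and 11 lower, and 19 of the 20 edgeR calls were shared, with Samd9l lost and Oas1a, Stat2 and Slfn5 gained. It was run without the filter on low counts, and 12.7% of its 34744 genes were called higher and 13.6% lower. With limma-voom the numbers were 12 and 9, beside 23.9% and 23.1% of all genes. Leaving out 1 lung gave 6 to 13 higher and 5 to 12 lower genes, while over all genes 17.2% to 23.3% were then called higher and 19% to 23.4% lower. The 6 higher genes Dhx58, Epsti1, Ifi204, Slfn8, Trim30a and Zbp1 and the 5 lower genes Cmpk2, Ifi27l2a, Irf9, Oas2 and Xaf1 kept their call without any 1 lung. Genes not called in the full set passed in some of these fits, at a lowest adjusted p of 0.0352 for Oas1g, 0.0261 for Oasl2, 0.0376 for Oas1a, 0.0465 for Rtp4 and 0.0497 for Slfn5, beside Irf7, Stat2 and Ifit3b given above. Without both replicates 1, the lungs that stood apart, 4 were higher and 8 were lower, beside 13.8% and 17.4% of all genes. In that fit 7 of the higher genes lost their call, Trim30a (adjusted p = 0.0641), Dhx58 (0.0694), Samd9l (0.158), Ddx58 (0.185), Mx1 (0.189), Parp9 (0.253) and Bst2 (0.269). Of the lower genes Ifi27 (adjusted p = 0.0526) and Ifitm3 (0.0703) lost theirs, Ifit3b gained one (0.0347), and 6064 of all genes were called in place of 9096.

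**Figure D5:**
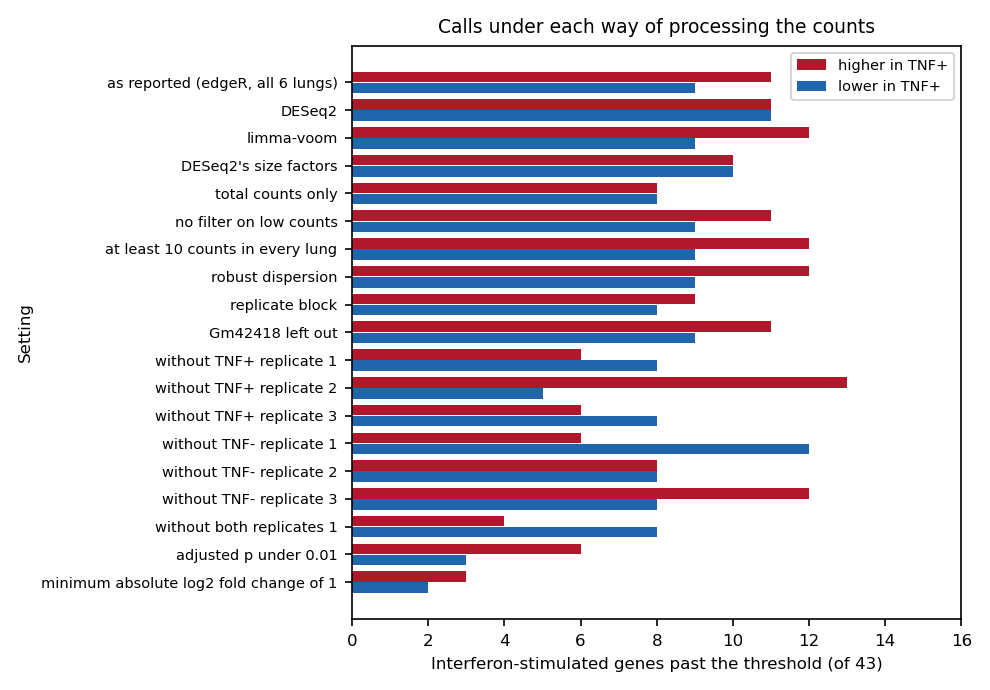
Bars give the number of the 43 genes called higher (red) and lower (blue) in TNF+ lungs under each way of processing, with the reported result of 11 and 9 at the top. The numbers fall to 6 higher genes without TNF+ replicate 1, TNF+ replicate 3 or TNF- replicate 1, and to 4 without both replicates 1.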

How the data were processed

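Bulk RNA-sequencing libraries of 6 mouse lungs (3 TNF+, 3 TNF-) were used, grouped by the genotype in the sample labels. The authors made stranded poly(A) libraries, read single-end, trimmed the reads with Trimmomatic (version 0.36 per the processing notes), mapped them with STAR (version 2.5.2b) to GRCm38.p5 (mm10) and deposited a table of raw counts per gene symbol, without normalization, for which the notes name featureCounts. The strand setting and gene annotation of the counting are not given in the sources used here. No column was left unused.

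Counts were filtered with filterByExpr, scaled by TMM and tested with edgeR's quasi-likelihood test (edgeR version 4.0.16, limma version 3.58.1, R version 4.3.3), in a model of genotype alone, and p-values were adjusted by Benjamini-Hochberg over all 19199 genes tested, at 0.05. The study's methods name DESeq2, which was used as an alternative (version 1.42.0). A standard error is the size of the log2 fold change divided by the square root of F. Gene positions, exon lengths and shared 100-base windows came from GENCODE M21. Promoters came from RefSeq (GRCm38.p6, the same chromosome sequences). The alternatives were limma-voom, other scalings and filters, robust dispersion, a replicate block, Gm42418 left out, lungs left out, and stricter thresholds. The scripts were tested on simulated data. Totals of 25396923 to 32529408 counts set the floor of 3 counts. Labels name separate mice.

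The 43 genes, the pathway and marker lists and the tests were chosen with earlier results of these data known. Among the 43 genes, values in every lung were given for called genes with an absolute log2 fold change of at least 1 and for all genes called lower. They were also given for Stat2, Irf9, Irf7, Isg15, Usp18, Mx1, Ifit3, Ifit3b, Oas1a and Oas1g. Some genes of the pathway lists are not reported here and were left out of the list counts. Sums of cell type markers without their leading markers were added after the values were seen.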

Additional observations from a re-analysis of the deposited data

How the results depend on the processing

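Of the 43 genes, 11 were called higher and 9 lower as reported. Leaving out 1 lung gave 6 to 13 higher and 5 to 12 lower genes (17.2% to 23.3% and 19% to 23.4% of all genes), the number of higher genes being 6 without TNF+ replicate 1, TNF+ replicate 3 or TNF- replicate 1, and the number of lower genes 5 without TNF+ replicate 2. Without both replicates 1 there were 4 higher and 8 lower (13.8% and 17.4% of all genes). At an adjusted p of 0.01 there were 6 and 3, and the share of all genes at that threshold is not given here. At an absolute log2 fold change of 1 there were 3 and 2 (10.3% and 12.2% of all genes), where 15 in place of 24 interferon pathway genes were called. Over all genes tested, 9096 were called as reported and 6064 without both replicates 1. The other scalings, filters and tools gave 8 to 12 higher and 8 to 11 lower genes. Of all genes, 12.7% to 24.8% were then called higher and 13.1% to 24.4% lower, with the lowest shares where no filter on low counts was used. The cause of these differences was not tested.

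Changes of sign were found in genes that were not called, and in fits that left out lungs. Over the fits without 1 lung or without both replicates 1, the log2 fold change ran from -0.024 to 0.26 for Isg15, -0.19 to 0.47 for Ifit1, -0.15 to 0.23 for Rsad2, -0.014 to 0.17 for Eif2ak2, -0.0088 to 0.28 for Dtx3l, -0.00085 to 0.33 for Phf11d, -0.039 to 0.16 for Irf1, -0.33 to 0.031 for Mx2, -0.33 to 0.31 for Ifi44, -0.16 to 0.098 for Herc6 and -0.011 to 0.44 for Oas3. The values of Isg15, Ifit1, Eif2ak2, Dtx3l, Phf11d and Irf1 turned negative without TNF+ replicate 3. The median level per length of 5.79 became 7.98 with the longest transcript in place of all exons, because the length is shorter. The share of promoters with the ISRE core, 54.8%, became 32.3% with 2 more fixed bases. Over all genes with a promoter it went from 3.99% to 0.303%.

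Under a replicate block 9 genes were higher and 8 lower, and Parp9, Samd9l and Ifitm3 were lost, while over all genes 19.9% were higher and 20.1% lower. Same-numbered mice are different animals. Their correlations across genes were -0.15, -0.0044 and -0.24 for the 3 same-numbered pairs, with a mean of 0.065 for the other pairs. The values were centred within each genotype, which ties these correlations to each other. They therefore cannot tell whether same-numbered lungs share a step of handling. Reads shared between copies, overlapping genes or cell types cannot be separated.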

Other observations

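The relatives of several of the 43 genes did not all move in 1 direction (these relatives were picked after their values were seen). In the Ifi200 family of DNA-binding proteins, to which Ifi204 belongs, Ifi205 (log2 fold change 1.07), Ifi207 (1.82), Ifi211 (1.39) and Mndal (0.78) were higher in TNF+ lungs by edgeR and Ifi213 was lower (-1.06), while Ifi203 (0.33) and Ifi209 (0.24) were not called. In the Schlafen family Slfn2 (1.35) and Slfn9 (1.58) were higher and Slfn4 was lower (-1.91), and Slfn1 (-0.38) and Slfn3 (-0.14) were not called. Beside Ifitm3, which was lower, Ifitm1 (1.35) and Ifitm6 (1.79) were higher and Ifitm2 (0.23) was not called. Ifitm1 had normalized counts of 4806, 4355 and 4249 in TNF+ lungs and 1543, 1397 and 2310 in TNF- lungs. Phf11b, a neighbour of Phf11d, was higher (0.94).

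Some regulatory factors that mark particular immune cells were higher as well. Irf5 had normalized counts of 2566, 2840 and 2861 in TNF+ lungs and 675, 757 and 842 in TNF- lungs (log2 fold change 1.86, edgeR adjusted p = 1.18e-05), Irf8 had a log2 fold change of 1.06 and Irf4 of 1.89. The markers of monocytes and interstitial macrophages were also higher, while of 8 alveolar macrophage markers 3 were higher and 2 were lower. The plasma cell markers Jchain and Mzb1 were higher, and Sdc1 was not called (log2 fold change -0.02, edgeR adjusted p = 0.923). Jchain, Mzb1 and Irf4 were each highest in TNF+ replicate 1. The part of these markers in the changes was not tested.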
